A study of Caenorhabditis elegans with 6 samples.

Results

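The genes described here belong to the hypoxia pathway built around the transcription factor HIF-1 and to the handling of hydrogen sulfide and cyanide in Caenorhabditis elegans. They are hif-1, egl-9, vhl-1, rhy-1, cysl-1, cysl-2, cysl-3, cysl-4, sqrd-1 and ethe-1. All 10 were found on the array, on 11 probe sets that the platform annotation gives a single gene symbol, out of 22548 probe sets and 17138 genes with a probe set of their own. The 10 genes were chosen by name from these pathways, with earlier results of the same comparison of genotypes known, among them the log2 difference of cysl-2, so their differences between genotypes are given as a description, with no p-value.

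RNA was taken from whole animals at the fourth larval stage (L4), grown on plates with the E. coli strain OP50. The mutant group was atfs-1(et18), with 3 arrays, and the other was wild-type N2, also with 3 arrays, each array being a biological replicate per the labels. ATFS-1, a bZIP transcription factor, drives the mitochondrial unfolded protein response. Its allele et18 is known as a gain-of-function point mutation. The labels name 1 allele and no rescued or second line, so the comparison is between these 2 strains. No other treatment was applied, and no array measured worms in low oxygen, sulfide or cyanide.

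In worms with ample oxygen, the prolyl hydroxylase EGL-9 marks HIF-1, and the ubiquitin ligase component VHL-1 then directs it to degradation. RHY-1, a membrane protein related to acyltransferases, keeps HIF-1 activity low, and CYSL-1, a protein of the cysteine synthase family, binds EGL-9 and inhibits it when sulfide is present. Genes known to be induced by HIF-1 include rhy-1, egl-9, cysl-2 and sqrd-1, so the pathway contains feedback, and the enzymes CYSL-2, SQRD-1 and ETHE-1 remove cyanide or oxidise sulfide. This is background and was not measured on the arrays.

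In atfs-1(et18) worms the transcripts of cysl-2, rhy-1, sqrd-1 and hif-1 were lower than in wild-type worms on every array, with signals at 22.5%, 53.0%, 60.7% and 69.6% of wild type. The other genes of the group differed less: vhl-1, cysl-3, cysl-4 and ethe-1 overlapped between genotypes, and the probe sets of cysl-1 differed in sign. The gene egl-9 was also lower on every mutant array, at 88.3% of its wild-type level. Of all genes tested, 10.5% were lower without overlap. Within the group limma called only cysl-2, and nothing is read from this call, since the genes were chosen with this comparison known. Outside the group, the nitrilase gene nit-1 fell, while the ferritin gene ftn-1, rips-1 and the cystathionine gamma-lyase gene cth-1 rose. These genes come from lists that were also chosen with earlier results of these data known. Values are MAS5 signals, linear intensities in arbitrary units that the authors had scaled alike on every array. A log2 difference is the atfs-1(et18) mean minus the wild-type mean of log2 signals, given with its standard error (SE) from a limma fit over all probe sets. Since probe sets differ in how well they bind, levels are compared between arrays and never between genes.

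**Figure D1:**
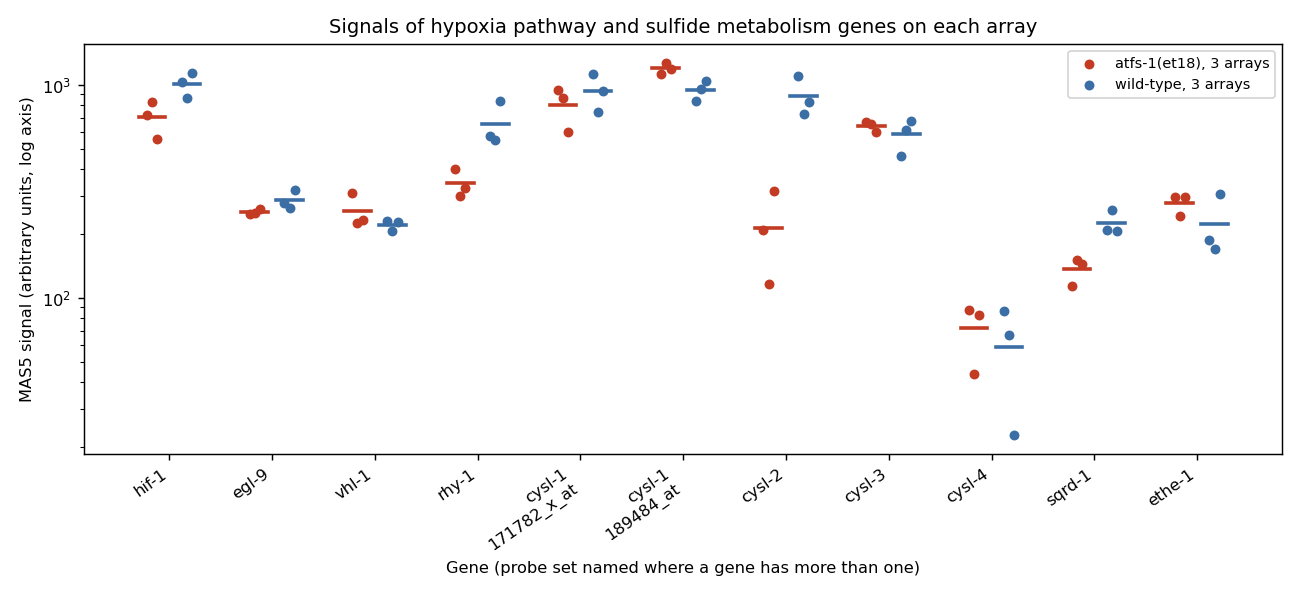
MAS5 signal (log axis) of each probe set on the 3 atfs-1(et18) arrays (red, left) and the 3 wild-type arrays (blue, right), with a bar at each group's mean. For cysl-2 the mutant arrays lie between 116 and 317 and the wild-type arrays between 732 and 1093, and rhy-1, sqrd-1 and hif-1 are also separated, while cysl-3, cysl-4, vhl-1 and ethe-1 overlap.

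The transcription factor gene hif-1 had signals of 723, 834 and 558 in atfs-1(et18) worms and 1025, 862 and 1130 in wild-type worms. Every mutant array lay below every wild-type array, although the highest mutant and the lowest wild-type signal were close. The mean was 705 ± 139 in the mutant and 1006 ± 135 in wild type (SD, n = 3 each), and the log2 difference was -0.52 ± 0.20 (SE). It ran from -0.65 to -0.36 when single arrays were left out, the smallest size being without atfs-1(et18) replicate 3. In RNA from whole animals, fewer cells of a type and less RNA per cell cannot be told apart, here and for every gene below.

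The HIF-1 prolyl hydroxylase gene egl-9 had signals of 248, 251 and 261 in atfs-1(et18) worms and 278, 263 and 322 in wild-type worms. The mutant arrays were again all lower, by a small margin, with a log2 difference of -0.18 ± 0.18 (SE), a value no larger than its error. It was -0.10 without wild-type replicate 3. The probe sets of hif-1 and egl-9 are each annotated with 2 gene identifiers that carry the same symbol, and both probe sets are marked as able to bind several transcripts.

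The gene vhl-1, for the substrate-recognition part of the ligase, had signals of 309, 223 and 231 in atfs-1(et18) worms and 228, 206 and 227 in wild-type worms. The genotypes overlapped, 1 mutant array stood above the rest, and the log2 difference was 0.19 ± 0.20 (SE). With single arrays left out it ran from 0.05 (without atfs-1(et18) replicate 1) to 0.28 (without atfs-1(et18) replicate 2).

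The negative regulator rhy-1 had signals of 400, 301 and 329 in atfs-1(et18) worms and 576, 550 and 842 in wild-type worms. All mutant arrays were below all wild-type arrays, and the wild-type spread came from 1 high array. Means were 344 ± 51.0 in the mutant and 656 ± 162 in wild type (SD, n = 3 each), a log2 difference of -0.92 ± 0.22 (SE), or 1.89-fold lower. Leaving out single arrays gave -1.03 to -0.72, the smallest size being without wild-type replicate 3. A further probe set, annotated both to rhy-1 and to its chromosomal neighbour oac-54, read 283, 270 and 220 in the mutant and 347, 563 and 665 in wild type. This shared probe set also separated the genotypes, with a log2 difference of -0.98 ± 0.26 (SE), and cannot be assigned to one of the genes. The probe set of oac-54 alone was dim, at 5.91 to 31.6 in the mutant and 7.25 to 30.2 in wild type, and was not tested.

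The sulfide-responsive regulator cysl-1 was read by 2 probe sets that did not move together. The one specific to a single transcript had signals of 1128, 1270 and 1190 in atfs-1(et18) worms and 836, 954 and 1041 in wild-type worms, with every mutant array above every wild-type array and a log2 difference of 0.35 ± 0.15 (SE). The other, marked as open to cross-hybridisation, had signals of 944, 863 and 598 in the mutant and 1122, 744 and 931 in wild type, with overlap and a log2 difference of -0.22 ± 0.23 (SE). The mean of both gave 0.06, so no direction is stated for cysl-1.

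Among the enzymes, cysl-2 differed most. It encodes a cyanoalanine synthase, which joins cyanide to cysteine and releases sulfide. Its signals were 208, 116 and 317 in atfs-1(et18) worms and 1093, 732 and 832 in wild-type worms. The genotypes did not overlap, the highest mutant signal being 317 and the lowest wild-type signal 732. Means were 213 ± 101 in the mutant and 886 ± 187 in wild type (SD, n = 3 each), a log2 difference of -2.15 ± 0.34 (SE), or 4.44-fold lower. Leaving out single arrays gave -2.49 to -1.77, the smallest size being without atfs-1(et18) replicate 2, the array with the lowest signal. The probe set is marked as able to bind several transcripts and is the only one for this gene.

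The relatives of cysl-2 in the cysteine synthase family showed no such difference. For cysl-3 the signals were 670, 654 and 599 in atfs-1(et18) worms and 465, 612 and 677 in wild-type worms. They overlapped, the log2 difference was 0.15 ± 0.18 (SE), and it ran from -0.01 without wild-type replicate 1 to 0.26 without wild-type replicate 3. For cysl-4 the signals were 87.9, 44.0 and 83.2 in the mutant and 86.5, 66.7 and 22.6 in wild type, and only 2 mutant arrays and 1 wild-type array were above the 40th percentile of their array, the level used as a floor for testing. At such dim signals the log2 difference of 0.44 ± 0.59 (SE) has an error larger than itself, and it ran from -0.15 without wild-type replicate 3 to 0.82 without wild-type replicate 1. A probe set shared between cysl-4 and its neighbour F59A7.7 was above the 40th percentile on 2 wild-type arrays and no mutant array, and was not tested.

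The sulfide quinone oxidoreductase gene sqrd-1, whose enzyme begins sulfide oxidation in mitochondria, had signals of 114, 150 and 144 in atfs-1(et18) worms and 208, 257 and 206 in wild-type worms. Every mutant array was lower than every wild-type array. The means were 136 ± 19.7 in the mutant and 223 ± 29.2 in wild type (SD, n = 3 each), with a log2 difference of -0.72 ± 0.23 (SE) and a range of -0.80 to -0.60 with single arrays left out. The gene of the next enzyme, the mitochondrial persulfide dioxygenase ethe-1, had signals of 297, 241 and 298 in atfs-1(et18) worms and 187, 170 and 308 in wild-type worms. Here 1 wild-type array was above all mutant arrays, and the log2 difference of 0.38 ± 0.26 (SE) ran from 0.21 without wild-type replicate 2 to 0.64 without wild-type replicate 3. Of these 2 consecutive enzymes of sulfide oxidation, only sqrd-1 separated the genotypes; a test of the difference between them was not made.

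**Figure D2:**
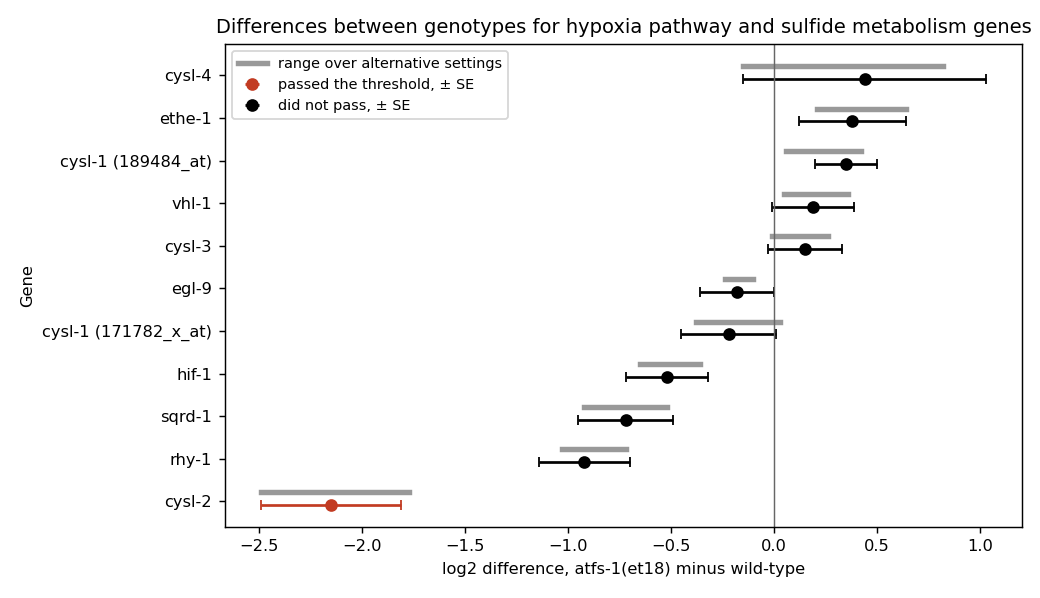
Log2 difference, atfs-1(et18) minus wild-type, of each probe set (points, ± SE) with the range over the alternative settings (grey bars). Red marks cysl-2 (-2.15), the only gene to pass the limma threshold. The genes were chosen with this comparison known, so nothing is read from that call. The values of rhy-1, sqrd-1 and hif-1 stay below 0 under every setting shown. The bars of cysl-3, cysl-4 and the cysl-1 probe set open to cross-hybridisation reach or cross 0.

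Across the 10 genes, each read by its brightest probe set, 5 were lower in atfs-1(et18) with no overlap between genotypes (hif-1, egl-9, rhy-1, cysl-2 and sqrd-1) and 1 was higher (cysl-1 by its brighter probe set, while its other probe set overlapped with the opposite sign). Over all 10633 genes tested, 23.4% did not overlap, 10.5% being lower and 12.9% higher. At the limma threshold (Benjamini-Hochberg adjusted p under 0.05 over all 13792 probe sets tested), 1 of the 10 was called, cysl-2, while 4.06% of all genes were called, 1.37% as lower and 2.69% as higher. Nothing is read from these shares, since the genes were chosen with this comparison known. All 10 genes passed the floor on dim signals. The median log2 difference over the 10 was -0.02, with 5 above and 5 below 0, against 0.00 over all genes tested. The cysl-2 call ended without atfs-1(et18) replicate 1, where the log2 difference was -2.19. In 4 of 18 alternatives rhy-1 was also called: with array weights, a floor at the 60th percentile, probe sets averaged per gene and without wild-type replicate 1. With array weights sqrd-1 was called too, in 1 of its 17 alternatives. Nothing is read from these calls either.

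Genes that work with these regulators were described next, from lists of known pathway members. These lists, here and below, were also chosen with earlier results of these data known. Their counts, shares and p-values are therefore a description and not independent tests. HIF-1 acts as a dimer with AHA-1, and VHL-1 works in a ligase with CUL-2, elongins and RBX proteins. Of 8 listed genes 7 were tested and 0 were called by limma. At an unadjusted p under 0.05 there was 1 of the 7, where 17.4% of all genes tested had such a p, and the list had a median log2 difference of 0.04. The gene aha-1 read 405, 437 and 352 in atfs-1(et18) worms and 380, 310 and 490 in wild-type worms, a log2 difference of 0.04 ± 0.21 (SE, limma adjusted p = 0.954). The cullin gene cul-2 was as close, at 0.03 ± 0.19 (adjusted p = 0.962). The smallest p belonged to the chaperone gene hsp-90, at -0.32 ± 0.14 (adjusted p = 0.280), followed by the RING subunit genes rbx-2, at 0.29 ± 0.19 (adjusted p = 0.511), and rbx-1, at 0.12 ± 0.13 (adjusted p = 0.725). In the related collagen prolyl 4-hydroxylase family, limma called 0 of 3 genes tested, and 1 had an unadjusted p under 0.05 (17.4% over all genes). This was pdi-2, at -0.42 ± 0.15 (limma adjusted p = 0.193), while its other probe set had -0.10 (adjusted p = 0.857). The gene dpy-18 had -0.03 ± 0.20 (adjusted p = 0.963) and phy-2 had -0.03 ± 0.22 (adjusted p = 0.962).

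Of 13 further genes reported to depend on HIF-1 in worms, 10 were bright enough to test. Limma called 2 of them as higher and 0 as lower, where 2.69% and 1.37% of all genes were. The median log2 difference was -0.09, with 4 genes above and 6 below 0. Since the list mixes genes induced by HIF-1 with ftn-1, known to be repressed by it, this median and these counts have no single direction. The larger rise was that of rips-1 (R08E5.3), which read 8541, 9770 and 5885 in atfs-1(et18) worms and 2210, 3544 and 3870 in wild-type worms. All mutant arrays were above all wild-type arrays, the log2 difference was 1.34 ± 0.26 (SE, limma adjusted p = 0.0240), and the call ended in 5 of 18 alternatives (adjusted p from 0.00342 to 0.124), among them without atfs-1(et18) replicate 1, atfs-1(et18) replicate 2 or wild-type replicate 2. The ferritin gene ftn-1, which stores iron and is known to be repressed by HIF-1, read 713, 876 and 659 in atfs-1(et18) worms and 358, 309 and 313 in wild-type worms. This was a rise of 1.19 ± 0.18 (limma adjusted p = 0.00751, 0.00108 to 0.0486 over 17 alternatives), a call that held in each of them. The log2 differences of cysl-2, rhy-1 and sqrd-1 had the opposite sign, and that of rips-1 had the same sign as ftn-1. Whether HIF-1 activity differed between the genotypes was not tested.

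The other genes of that list were not called. F22B5.4, a classical HIF-1-induced gene, read 50.2, 53.0 and 114 in atfs-1(et18) worms and 234, 91.0 and 119 in wild-type worms, with overlap and a log2 difference of -1.02 ± 0.46 (SE, limma adjusted p = 0.307). Its signals were near the floor, above the 40th percentile on 3 wild-type arrays but only 1 mutant array. With an offset of 64 its log2 difference was -0.61. The carbonic anhydrase gene cah-4 had -0.33 ± 0.15 (adjusted p = 0.290), with the mutant arrays all lower, and the cysteine dioxygenase gene cdo-1 had -0.52 ± 0.27 (adjusted p = 0.372). The nuclear receptor gene nhr-57, often used as a HIF-1 reporter, had 0.27 ± 0.22 (adjusted p = 0.590), and the cytochrome P450 gene cyp-36A1 had 0.21 ± 0.26 (adjusted p = 0.753). Genes reported as HIF-1-dependent therefore had values on both sides of 0 in these arrays, from rips-1 at 1.34 to F22B5.4 at -1.02. The flavin monooxygenase gene fmo-2 and the metal transporter gene smf-3 were too dim to test, with signals of 12.2 to 42.0 and 6.26 to 49.0 in the mutant, and 6.95 to 55.3 and 8.78 to 70.0 in wild type.

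Around the enzymes of cysteine and sulfide metabolism, 21 of 26 listed genes were tested. Limma called 1 of them as higher and 1 as lower, where 2.69% and 1.37% of all genes were. The median log2 difference was 0.11. The fall was that of nit-1, of the nitrilase family, whose members hydrolyse nitriles. Its signals were 124, 102 and 131 in atfs-1(et18) worms and 458, 456 and 388 in wild-type worms. The groups were tight and far apart, with means of 119 ± 14.7 in the mutant and 434 ± 40.1 in wild type (SD, n = 3 each), a log2 difference of -1.87 ± 0.20 (SE) and a limma adjusted p = 0.00162 (0.000225 to 0.0171 over 18 alternatives, called in each). The genes of a cyanoalanine synthase, cysl-2, and of a nitrilase were thus both several-fold lower in the mutant, on separate probe sets. The difference of nit-1 varied less between single arrays left out than that of cysl-2.

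The rise was that of cth-1, for cystathionine gamma-lyase, which makes cysteine and can release sulfide. It read 15068, 17406 and 11861 in atfs-1(et18) worms and 8636, 9385 and 7787 in wild-type worms, all mutant arrays being higher. The log2 difference was 0.77 ± 0.17 (SE, limma adjusted p = 0.0412), and this call ended in 8 of 18 alternatives (adjusted p from 0.00326 to 0.187), among them each single array left out except atfs-1(et18) replicate 3. Its paralogue cth-2 had 0.11 ± 0.15 (adjusted p = 0.781). The cystathionine beta-synthase gene cbs-1, one step earlier, read 294, 204 and 245 in the mutant and 436, 322 and 303 in wild type. All mutant arrays were lower for cbs-1, but the log2 difference of -0.51 ± 0.22 was not called (adjusted p = 0.289). Its paralogue cbs-2 went the other way, with all mutant arrays higher and 0.48 ± 0.28, also not called (adjusted p = 0.445).

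The sulfurtransferase gene mpst-1, of the 3-mercaptopyruvate route to sulfide, read 2531, 2990 and 2340 in atfs-1(et18) worms and 1511, 1853 and 1470 in wild-type worms. The genotypes did not overlap, and the log2 difference of 0.70 ± 0.16 lay at the threshold without passing it (limma adjusted p = 0.0504). It passed in 7 of 17 alternatives (0.0267 to 0.182). The molybdenum cofactor gene moc-1 had 0.56 ± 0.25 (adjusted p = 0.299), and the sulfite oxidase gene suox-1, whose enzyme needs that cofactor, had -0.24 ± 0.18 (adjusted p = 0.549). The glutamate-cysteine ligase gene gcs-1, which feeds cysteine into glutathione, had 0.12 ± 0.17 (adjusted p = 0.784).

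Glycolytic and lactate genes, a class of HIF targets in mammals, were set beside these. Of 17 tested, limma called 1 as higher and 0 as lower, where 2.69% and 1.37% of all genes were. The called gene was the aldolase gene aldo-1 (2.15-fold, limma adjusted p = 0.00748, 0.0525 without atfs-1(et18) replicate 1, range 0.00184 to 0.0525). In this list 7 genes were higher in the mutant without overlap, where 12.9% of all genes were, and 0 were lower. The lactate dehydrogenase gene ldh-1 read 2882, 3174 and 2471 in atfs-1(et18) worms and 1744, 2066 and 2004 in wild-type worms, a separated difference of 0.55 ± 0.15 that was not called (adjusted p = 0.0995). The hexokinase gene hxk-1 had 0.74 ± 0.19 (limma adjusted p = 0.0708), and its other probe set had 0.55 (adjusted p = 0.263). The phosphoglycerate mutase gene ipgm-1 had 0.51 ± 0.14 (adjusted p = 0.0981). The list's median log2 difference was 0.17, against 0.00 over all genes.

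**Figure D3:**
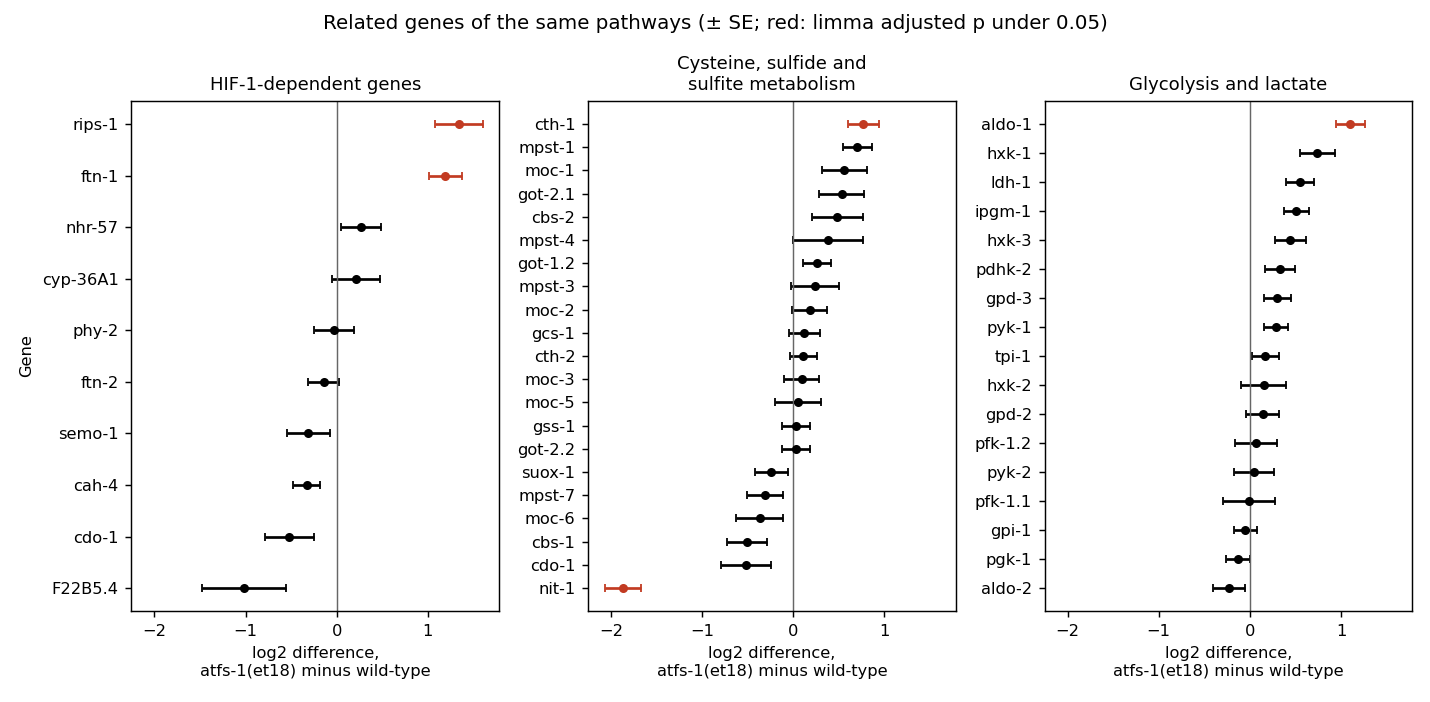
Log2 difference, atfs-1(et18) minus wild-type (± SE), of the tested genes in 3 related lists, with genes called by limma in red. In the first panel rips-1 (1.34) and ftn-1 (1.19) are the called genes, in the second nit-1 (-1.87) lies far below the rest and cth-1 (0.77) is the called rise, and in the third aldo-1 is the only call.

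The genes of the group lie on several chromosomes: hif-1, egl-9, cysl-3 and cysl-4 on chromosome V, vhl-1 and cysl-1 on X, rhy-1 and cysl-2 on II, and sqrd-1 and ethe-1 on IV. Their nearest protein-coding neighbours in the gene table were looked up after the values were seen. Of 20 neighbour positions 10 held a gene that could be tested. Limma called 1 of them as higher and 0 as lower, where 2.69% and 1.37% of all genes were. The gene that rose was rips-1, which adjoins cysl-3, so that a gene with a 2.53-fold rise (limma adjusted p = 0.0240) stood beside one whose groups overlapped. On the 2 sides of cysl-2, vnut-1 had a log2 difference of 0.83 ± 0.33 (adjusted p = 0.248) and dhs-8 was too dim to test, with signals of 10.5 to 26.1 in the mutant and 25.5 to 73.5 in wild type.

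The gene of the mutated factor, atfs-1, read 346, 355 and 289 in atfs-1(et18) worms and 207, 284 and 277 in wild-type worms, and this level cannot check the labels because et18 is a point mutation. Marker lists of 7 tissues or stages were read on the same arrays, and limma called 0 of their 66 tested genes. An unadjusted p under 0.05 was found for 14 of the 66, against 17.4% of all genes tested. In mean log2 signal, the neuron list ran from 9.35 to 9.52 in the mutant and from 9.54 to 9.83 in wild type, and the body wall muscle list from 12.93 to 13.20 in the mutant and from 13.20 to 13.35 in wild type. Both lists were thus lower in atfs-1(et18), by 0.30 and 0.21, without overlap. The germline list ran from 9.44 to 9.78 in the mutant and from 8.87 to 9.81 in wild type. The oocyte list ran from 9.01 to 9.32 in the mutant and from 8.26 to 9.38 in wild type. The sperm list ran from 11.81 to 12.19 in the mutant and from 11.98 to 12.59 in wild type. The germline, oocyte and sperm lists overlapped, yet their mean differences were of like size, at 0.31, 0.34 and -0.27. All 9 sperm genes tested had log2 differences below 0, while 11 of 12 germline and 8 of 10 oocyte genes were above 0. The intestine list (11.99 to 12.40 in the mutant, 11.93 to 12.46 in wild type) and the hypodermis list (11.38 to 11.61 in the mutant, 11.44 to 11.68 in wild type) overlapped as well. The part of tissue make-up in the differences of cysl-2, rhy-1, sqrd-1 and hif-1 was not tested.

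**Figure D4:**
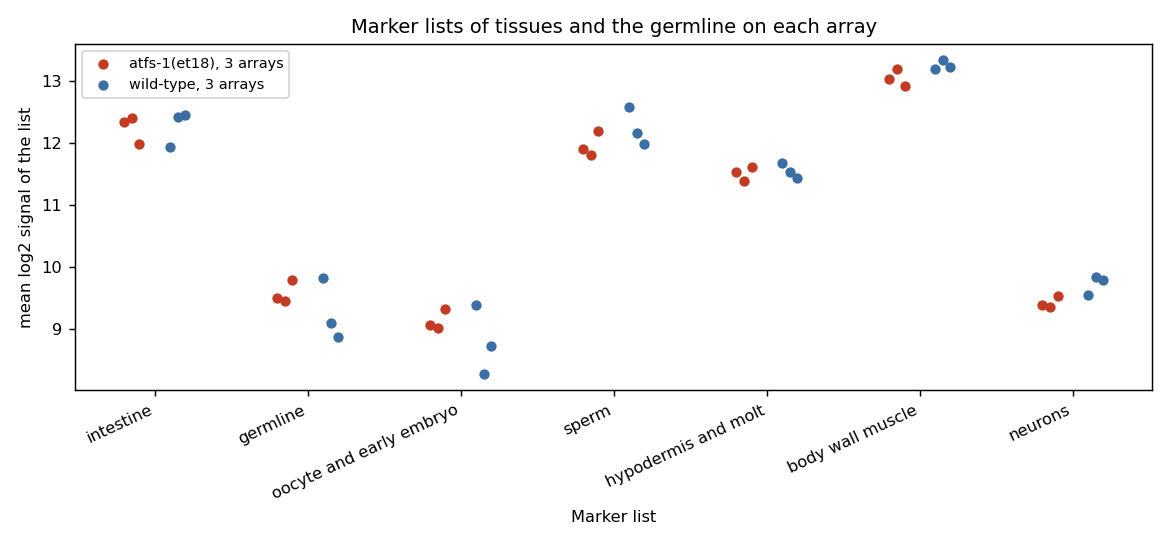
Mean log2 signal of 7 marker lists on each atfs-1(et18) array (red, left) and each wild-type array (blue, right). The neuron and body wall muscle lists lie lower in the mutant without overlap, and the other lists overlap between genotypes.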

How the data were processed

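Biotin-labelled cRNA of 6 whole-worm RNA samples was hybridised to Affymetrix arrays, per the labels' protocols. Each deposited intensity is a linear MAS5 signal of a probe set, made by the authors, per the submitters' processing notes. The MAS5 version is not given in the sources used here, and no detection calls were used. The values show scaling to a common level: the mean after trimming 2% at each end was 500.2 on every array. Array medians were 111.1 to 137.6, and 3 arrays per genotype limit the precision.

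Log2 was taken of the signals as deposited. After removal of 77 control probe sets, a probe set was tested if it exceeded the 40th percentile of its array on at least 3 of 6 arrays (13792 of 22548). Symbols came from the platform annotation, updated by gene identifier with the WBcel235 gene table (20745 matched, 65 kept their symbol). Of the probe sets, 20810 had 1 symbol, identical symbols under different identifiers being merged, 843 several and 895 none. No coordinates or sequences are printed. A gene was represented by its tested probe set of highest mean log2 signal. Genotypes were compared with limma 3.58.1 in R 4.3.3 (lmFit, eBayes with trend, two-sided, Benjamini-Hochberg). With 3 arrays a side, the smallest two-sided p of an exact test is 0.1, so none was run. The fit was tested on simulated data.

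The genes, lists and alternatives were chosen with earlier results of these data known. Named genes are the 10 described, atfs-1, the called genes of each list (up to 8) with up to 3 uncalled genes of smallest p, 18 genes fixed by name, and the 5 genes most correlated with cysl-2. The neighbours of the 10 genes and cbs-2 were added after the values were seen. Alternatives were 2 scalings (quantile and median), offsets of 16 and 64, no floor or one at the 60th percentile, 2 variance priors, array weights, a replicate block, leaving out probe sets of several transcripts, averaging the probe sets of a gene, and leaving out each array. The planned description of promoters and protein sequences was not made.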

Additional observations from a re-analysis of the deposited data

How the results depend on the processing

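The counts of calls were recomputed under 18 alternatives, and the log2 differences of the named genes under those in which their probe set was tested; the marker list means, neighbours, shared probe sets and correlations were not recomputed. For the 10 genes, 188 of 189 log2 differences moved by less than 1 SD of the replicates. The exception was cysl-1 with the mean of its probe sets (0.06). Much of this count was fixed in advance. Another floor, variance prior or replicate block cannot change a log2 difference, nor can averaging for a gene with 1 probe set. Leaving out probe sets of several transcripts cannot change that of a probe set that stays. The number of the 10 genes called, 1, was 2 with a floor at the 60th percentile or with probe sets averaged per gene, 3 with array weights and 0 without probe sets of several transcripts, which removes cysl-2; with single arrays left out it was 0 to 2, the 0 without atfs-1(et18) replicate 1. Over all genes, 286 higher and 146 lower became 770 and 532 with array weights and 180 and 88 with the replicate block. The higher calls were 187 without a trend in the variance prior, and the lower calls were 95 without probe sets of several transcripts. With single arrays left out they were 104 (without atfs-1(et18) replicate 1) to 451 (without wild-type replicate 1) and 46 (without wild-type replicate 2) to 249 (without wild-type replicate 1). Same-numbered arrays had deviations correlated at 0.171, 0.175 and -0.397, so the replicate numbers were not taken as pairs; the replicate block ended no call among the 10 genes or the pathway lists. Of the 5 called genes in the pathway lists, 3 were left with median centring, no trend or no probe sets of several transcripts, 8 were called with quantile normalization and 10 with array weights, and 2 to 5 with single arrays left out. The HIF-1-dependent list had 1 call in place of 2 with median centring, no trend or no probe sets of several transcripts (1 to 2 with single arrays left out). The cysteine and sulfide list had 1 in place of 2 with median centring, no floor or no trend, and 4 with array weights (1 to 2 with single arrays left out). The glycolysis list had 3 with quantile normalization, 4 with array weights and 0 without probe sets of several transcripts (0 to 2 with single arrays left out). Probe sets near the floor, as for cysl-4 and F22B5.4, limit what these arrays can show. The cause of these changes was not tested except where a gene's only probe set was removed.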

Other observations

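Over the 6 arrays, the genes outside the group whose log2 signals followed cysl-2 most closely were T23F2.5 (Pearson r = 0.996), the globin gene glb-1 (0.993), the neuropeptide-like gene nlp-26 (0.991), the transthyretin-like gene ttr-15 (0.990) and T23F2.3 (0.990). These correlations share the 6 arrays and the genotype difference and are a description. Among them glb-1 read 333, 254 and 372 in atfs-1(et18) worms and 763, 587 and 601 in wild-type worms, and nlp-26 read 100, 48.6 and 113 in the mutant and 332, 275 and 261 in wild type. In these genes, as for cysl-2, atfs-1(et18) replicate 2 was the lowest array. This comes with their choice by correlation with cysl-2 and adds nothing to it.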
